A study of Mus musculus with 10 samples.

Results

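The genes described here act in the making, packaging or breakdown of the transmitters glutamate and GABA. They were taken by symbol from the gene annotation of the mouse genome build GRCm38 and comprise Gad1, Gad2, Slc32a1, Abat, Slc17a6, Slc17a7, Slc17a8 and Gls2, 8 of the 54838 gene identifiers counted. All 8 were among the 16806 genes that passed the expression filter, a level above 1 CPM (a count scaled to library size) in at least 2 libraries. The libraries came from translating ribosome affinity purification (TRAP), in which RNA bound to an EGFP-tagged ribosomal protein, L10a, is precipitated from the cells that carry the tag. The mice were males about 10 weeks old, of the strain labelled C57BL/6 (the study bred its lines with C57BL/6J mice), and of the genotype Drd2-Cre;Eef1a1LSL.eGFPL10a/+, named MC-TRAP, so that Cre expressed from the Drd2 gene's control regions switches on the tagged L10a. Both groups carried the same alleles, and none received a treatment. There were 5 dorsal and 5 ventral libraries, a shorter dorsal segment of the hippocampus and the longer ventral remainder, from which the study removed the medial part of the ventral pole where the ventral subiculum lies. A library was a pool of tissue from 5 mice. The study divided the hippocampi of the same mice into both segments, so the groups share animals, but it does not say that equal replicate numbers mark the same mice, and the tests below treat the pools as unpaired. The labels name the cells hippocampal mossy cells, and the study notes that the Drd2-Cre line also marks sparse interneurons and other Drd2-expressing hippocampal cells. It also saw the tag in neurons of the ventral subiculum, and allows that a little subicular tissue may have remained after dissection. No input or unbound RNA was analysed here, so a level below is a level in the precipitate and not an enrichment over the tissue.

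Glutamatergic neurons load glutamate into synaptic vesicles with a vesicular glutamate transporter, and GABAergic neurons make GABA from glutamate with glutamate decarboxylase and load it with the vesicular GABA transporter. Mossy cells are the glutamatergic neurons of the dentate hilus, which they share with several kinds of GABAergic interneuron. In the hippocampus Slc17a7 (VGLUT1) is the transporter of most principal cells, whereas Slc17a6 (VGLUT2) is best known from thalamic and other subcortical neurons and Slc17a8 (VGLUT3) from small populations that often also release another transmitter.

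Depth on genes was 11138676 to 16779821 counts for the dorsal and 11618625 to 20594364 for the ventral pools, and 3 counts, the least taken here as a detectable level, correspond to 0.146 to 0.269 CPM, a floor that covers counting error only. The fewest counts of a transmitter gene in a library were 31, for Gls2. Read pairs that the counting matched to no annotated feature took 27.01 ± 5.09% of dorsal and 14.4 ± 2.997% of ventral pairs (SD, n = 5 each). Whether such pairs lay within or outside genes is not given. Mitochondrially encoded messenger RNA took 2975 ± 305 CPM and 784 ± 296 CPM (SD, n = 5 each). These measures differ with the side, and their part in the differences below was not tested. Drd2 itself lay between 17.6 and 31.8 CPM in the 10 libraries. Calls required an adjusted p under 0.05 together with an absolute log2 ratio of the mean CPM plus 1 above 0.58, and log2 fold changes (log2FC) are dorsal over ventral, so that a negative value is higher in ventral.

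Among the 8 genes, 1 was called ventral-enriched, Slc17a6, and 0 dorsal-enriched by edgeR's quasi-likelihood test, whereas 9.85% of all tested genes were called ventral-enriched, 15.7% dorsal-enriched and 25.5% in either direction. A count of 1 in 8 is therefore close to the share of all tested genes. Without the fold criterion Gad1 also passed the adjusted p in the ventral direction, as did 14.6% of all tested genes, while 19% passed it in the dorsal and 33.6% in either direction. The log2FC was below 0 for 7 of the 8 genes and for 8464 of the 16806 tested, and 1 of the 7, Slc32a1, turned positive with a correction described with its values. The 8 genes had a median log2FC of -0.20, beside a median of -0.0044 over all tested genes.

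To compare levels between genes, CPM was divided by exonic length. Gad2, which encodes the decarboxylase GAD65, stood far above the rest in every library, with 486 ± 77.1 CPM per kb on the dorsal and 540 ± 69.2 CPM per kb on the ventral side (SD, n = 5 each), and ranked 15 by mean CPM and 36 by mean CPM per kb among the tested genes. In dorsal libraries Slc17a7 at 39.3 ± 8.56 CPM per kb and Gad1 at 33.7 ± 5.73 CPM per kb came next and overlapped, with Slc17a7 higher in 3 of 5 libraries. Slc32a1 and Abat followed at 18.4 ± 1.76 and 15.9 ± 3.64 CPM per kb, overlapping each other. Slc17a8, Slc17a6 and Gls2 formed the lowest tier at 2.32 ± 1.07, 2.12 ± 0.326 and 1.82 ± 0.422 CPM per kb, each overlapping the next. In ventral libraries Gad1 at 46.5 ± 4.64 CPM per kb stood above Slc17a7 at 32.5 ± 5.33 CPM per kb without overlap. Slc17a6 at 5.51 ± 0.860 CPM per kb led the lowest tier there, although its range overlapped that of Slc17a8 at 3.59 ± 1.86 CPM per kb. Gls2 was again last at 2.10 ± 0.956 CPM per kb. By these means the order differed between the sides in the places of Gad1 against Slc17a7 and of Slc17a6 in the lowest tier. Exonic GC content differs among the genes, 44.8% for Gad2, 49.8% for Gad1, 45.2% for Slc17a6, 56.6% for Slc17a7 and 61.9% for Slc32a1, and RNA amplified before sequencing can be recovered unevenly by base composition, so that levels of different genes compare less surely than those of 1 gene between libraries.

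**Figure D1:**
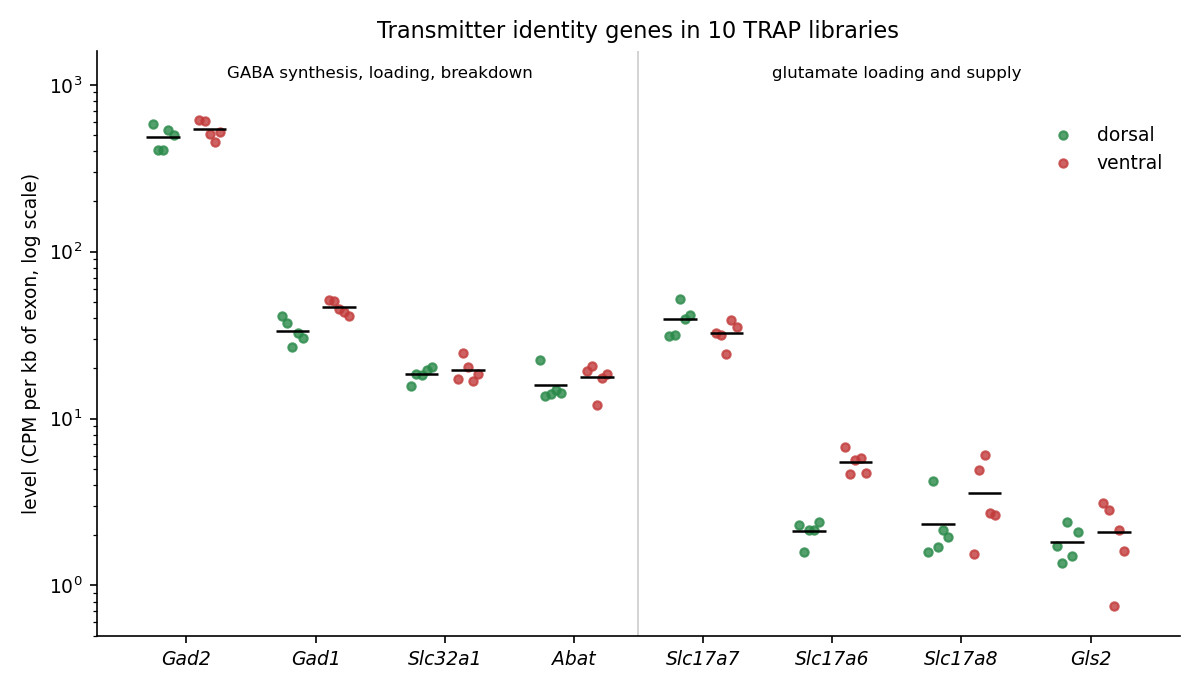
Level of the 8 genes in each library, in CPM per kb of exon on a log scale; points are the 5 dorsal and 5 ventral libraries and the short bars their means. Gad2 lies near 500 in both groups and above every other gene, and Slc17a6 is the gene whose dorsal and ventral points do not overlap.

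Slc17a6, the vesicular glutamate transporter VGLUT2, was the member with a clear difference between the sides. The gene (ENSMUSG00000030500) lies on the plus strand of chromosome 7 from 51622006 to 51671119. In order of replicate number, the dorsal pools held 12.5, 8.51, 11.6, 11.7 and 13.04 CPM of it and the ventral pools 36.4, 25.1, 30.3, 31.4 and 25.6 CPM. Every ventral library thus stood well above the highest dorsal library, and the groups did not overlap, as was the case in the ventral direction for 8.36%, in the dorsal direction for 9.81% and in either for 18.2% of all tested genes. The counts behind these levels ran from 131 to 656. The means were 11.5 ± 1.76 and 29.8 ± 4.64 CPM (SD, n = 5 each), and the fitted log2FC was -1.39, a 2.62-fold higher level in ventral libraries (SE 0.17, 95% interval -1.76 to -1.02, adjusted p = 0.00011 by edgeR's quasi-likelihood test). Leaving out each library in turn gave log2FC values between -1.45 and -1.29. In bulk precipitates such as these, more cells of a type and more RNA per cell cannot be told apart.

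Slc17a7, or VGLUT1, lies on the plus strand of chromosome 7 from 45163949 to 45176142 and was the most abundant of the 3 transporters on both sides. Its dorsal levels, in the same order, were 169, 172, 282, 213 and 225 CPM, and its ventral levels 175, 169.9, 131, 209 and 189.7 CPM. Dorsal replicate 3 was the highest and ventral replicate 3 the lowest of the 10, and the remaining libraries were interleaved. The means of 212 ± 46.1 and 175 ± 28.7 CPM gave a log2FC of 0.28 (SE 0.15, 95% interval -0.051 to 0.60), which did not pass the test (edgeR, adjusted p = 0.176) and was 0.16 without dorsal replicate 3. When each library was corrected for a smooth trend with GC content and exonic length, the log2FC became 0.60 (SE 0.12) and Slc17a7 was called dorsal-enriched (edgeR, adjusted p = 0.00265). The direction was dorsal in both fits, but the call thus depended on the treatment of GC content and length.

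Slc17a8, or VGLUT3, lies on the minus strand of chromosome 10 from 89574020 to 89621253. The dorsal pools held 7.53, 19.8, 8.04, 10.2 and 9.19 CPM and the ventral pools 7.27, 23.3, 28.7, 12.9 and 12.4 CPM. Dorsal replicate 2 and ventral replicates 2 and 3 stood well above the others, so that the spread lay within the groups. The log2FC of -0.51 (SE 0.36, 95% interval -1.29 to 0.27) did not pass the test (edgeR, adjusted p = 0.291). It ran from -0.86 without dorsal replicate 2 to -0.25 without ventral replicate 3. No difference was thus shown, and one of any size within the 95% interval remained possible.

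The region just before the start is shown for the 3 transporter genes, because these genes encode proteins of the same function and include the called gene, Slc17a6. The sequences are the 200 bases upstream of the most upstream RefSeq start on GRCm38.p6, written 5′ to 3′ on the gene's strand, with matches to the GC box letters GGGCGG on either strand in capitals. They lie at chr7:51621630-51621829 (plus strand) for Slc17a6, chr7:45163721-45163920 (plus strand) for Slc17a7 and chr10:89621250-89621449 (minus strand) for Slc17a8.
Slc17a6: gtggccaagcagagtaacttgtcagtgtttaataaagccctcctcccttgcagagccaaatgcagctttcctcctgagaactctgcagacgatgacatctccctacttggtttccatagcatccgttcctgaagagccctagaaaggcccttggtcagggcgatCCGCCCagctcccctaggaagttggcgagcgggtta
Slc17a7: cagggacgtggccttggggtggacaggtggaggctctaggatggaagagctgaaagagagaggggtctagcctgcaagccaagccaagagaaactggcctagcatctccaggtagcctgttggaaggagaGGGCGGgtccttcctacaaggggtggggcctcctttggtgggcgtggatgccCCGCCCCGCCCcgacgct
Slc17a8: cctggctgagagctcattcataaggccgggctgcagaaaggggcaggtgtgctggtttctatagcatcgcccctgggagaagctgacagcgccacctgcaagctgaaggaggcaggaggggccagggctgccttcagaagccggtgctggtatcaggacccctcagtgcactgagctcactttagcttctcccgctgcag
The Slc17a6 window held 1 GC box match, 36 to 31 bases before the start, and 54% G and C. The Slc17a7 window held 3 matches, of which the pair nearest the start share 1 base, and 63.5% G and C. The Slc17a8 window held no match and 61% G and C. No match to TATAAA or CCAAT on either strand was found in the 3 windows. Over 32851 RefSeq windows of the same length, 31% held the GC box letters, 9.96% TATAAA and 29.3% CCAAT, and the median G and C content was 53%. Such letter matches are common and say nothing of a factor's binding in these cells.

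Ratios within a library cancel its size and scaling. Per length, Slc17a6 stood to Slc17a7 at 0.0738, 0.0495, 0.0410, 0.0547 and 0.0580 across the dorsal and at 0.208, 0.148, 0.230, 0.150 and 0.135 across the ventral pools, in order of replicate number. The groups did not overlap. The mean ratio was 0.0554 ± 0.0121 for dorsal and 0.174 ± 0.0423 for ventral pools (SD, n = 5 each), a 3.13-fold difference of the geometric means and -1.65 on the log2 scale. The two-sided exact permutation test gave p = 0.00794, which is the lowest possible with 5 pools a side, and 0.0714 after Benjamini-Hochberg adjustment over the 9 ratios, so that it did not pass at 0.05. A single ratio at that smallest p cannot pass this adjustment. When a second ratio reached it too, Slc17a6 over Slc17a7 passed at an adjusted 0.0357, which happened without dorsal replicate 2 (-1.61 on the log2 scale) and with the GC content and length correction (-1.97). Expressed as a share of the 3 transporters per length, Slc17a6 took 4.95 ± 1.07% in dorsal and 13.4 ± 2.53% in ventral libraries, with ranges of 3.82 to 6.56% and 11.1 to 16.6%. Slc17a7 took 89.5 ± 3.11% and 77.7 ± 6.12%, and remained the main transporter in every library. Slc17a8 took 5.58 ± 3.20% and 8.93 ± 5.39%, with overlapping ranges. The ratio of Slc17a8 to Slc17a7 was 0.0633 ± 0.0392 in dorsal and 0.120 ± 0.0835 in ventral libraries and was not distinguished (log2 difference -0.83, exact permutation p = 0.159, adjusted 0.476). It ranged from -1.13 without dorsal replicate 2 to -0.50 without ventral replicate 3 and was -1.16 with the GC content and length correction, and passed in none of these.

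**Figure D2:**
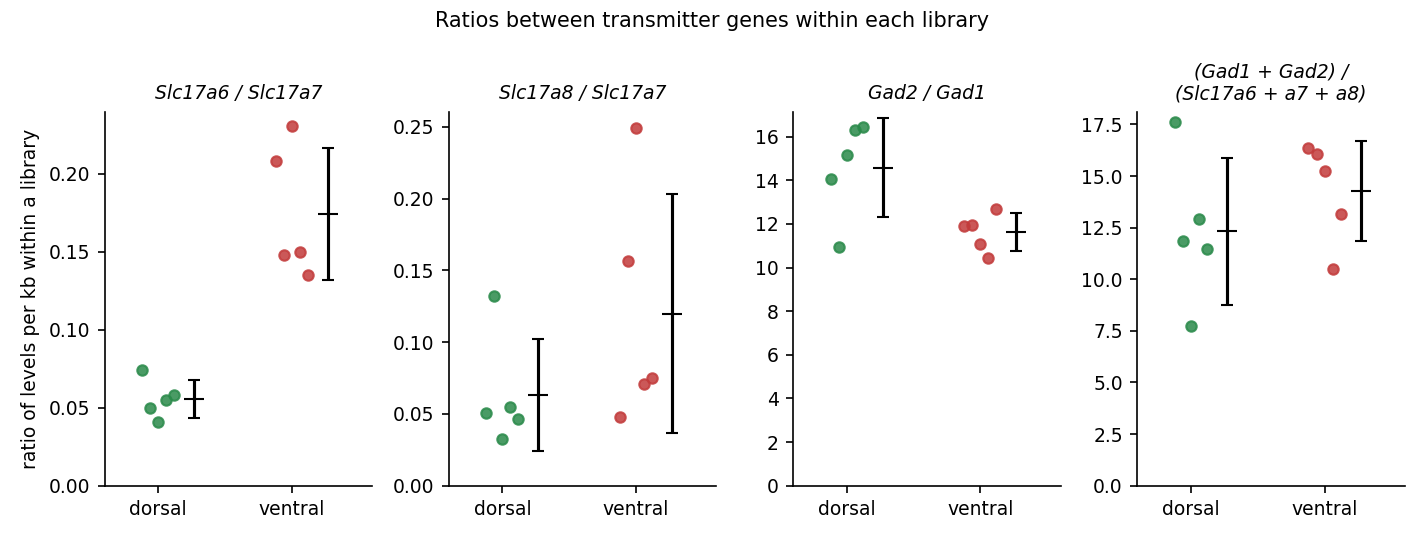
Ratios of levels per kb within each library for 4 pairs or groups of genes, each panel on a linear axis from 0; points are the 5 dorsal and 5 ventral libraries, and the bars give mean ± SD. Slc17a6 over Slc17a7 separates the groups, at 0.0410 to 0.0738 in dorsal and 0.135 to 0.230 in ventral libraries, while the points of the other 3 panels overlap.

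Glutamine is turned into transmitter glutamate by glutaminase, of which Gls2 encodes the liver-type enzyme. Gls2 lies on the plus strand of chromosome 10 from 128194457 to 128210004. Its levels were 6.02, 4.74, 8.31, 5.23 and 7.23 CPM across the dorsal and 10.9, 9.86, 2.62, 7.47 and 5.62 CPM across the ventral pools. The ventral libraries enclosed the whole dorsal range. The log2FC was -0.23 (SE 0.32, 95% interval -0.91 to 0.45, edgeR, adjusted p = 0.604), with -0.40 when ventral replicate 3 was left out, -0.018 when ventral replicate 1 was, and -0.0073 with the GC content and length correction. Spryd4 on the opposite strand shares 2.79% of its exonic bases, and the strand setting of the counting is not given in the sources used here. The ratio of Gls2 to Slc17a7 was 0.0464 ± 0.00655 and 0.0638 ± 0.0285 (log2 difference -0.35, exact permutation p = 0.294, adjusted 0.571), and ranged from -0.58 without ventral replicate 3 to -0.17 without ventral replicate 1.

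Of the 2 decarboxylases, Gad1 (GAD67, chromosome 2, 70553072 to 70602014, plus strand) was higher in ventral libraries by a margin below the fold criterion. The dorsal pools, in order of replicate number, held 316, 285, 205, 250.1 and 231 CPM and the ventral pools 394, 389, 348, 332 and 313 CPM. The ranges met only where dorsal replicate 1 lay just above ventral replicate 5. The log2FC was -0.46 (SE 0.12, 95% interval -0.72 to -0.21) and passed the adjusted p (edgeR, 0.0103) but not the fold criterion, so Gad1 was not called. Gad2 (chromosome 2, 22622205 to 22693874, plus strand) stood at 3416, 2400.1, 2389.7, 3134 and 2925 CPM across the dorsal and 3604, 3578, 2963, 2668 and 3056 CPM across the ventral pools. Its groups overlapped widely, and the log2FC of -0.15 (SE 0.12, 95% interval -0.40 to 0.095) did not pass the test (edgeR, adjusted p = 0.324), ranging from -0.22 without dorsal replicate 1 to -0.088 without dorsal replicate 3.

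The proportion of the 2 enzymes was compared within each library, and its difference between the sides did not pass adjustment. Gad2 exceeded Gad1 per length by 14.1, 10.9, 15.1, 16.3 and 16.5 times across the dorsal and by 11.9, 11.96, 11.1, 10.5 and 12.7 times across the ventral pools. Dorsal replicate 2 fell among the ventral libraries, and the other 4 dorsal libraries lay above all ventral ones. The means were 14.6 ± 2.26 and 11.6 ± 0.869 (SD, n = 5 each), a log2 difference of 0.32 (exact permutation p = 0.0397, adjusted 0.179 over the 9 ratios). It passed only without dorsal replicate 2, at a log2 difference of 0.42 (exact permutation p = 0.00794, adjusted 0.0357). Leaving out any other library gave 0.27 to 0.35 (exact permutation adjusted p of 0.196 to 0.357), and the GC content and length correction 0.22 (exact permutation p = 0.119, adjusted 0.179). As a share of the 2 enzymes per length, Gad2 took 93.5 ± 1.09% in dorsal and 92.0 ± 0.556% in ventral libraries.

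Slc32a1, the vesicular GABA transporter (chromosome 2, 158610767 to 158615748, plus strand), stood at 43.7, 51.9, 50.8, 54.4 and 56.7 CPM across the dorsal and 48.2, 68.8, 56.7, 46.7 and 51.5 CPM across the ventral pools. Ventral replicate 2 was the highest, and the other libraries were interleaved. The log2FC was -0.062 (SE 0.13, 95% interval -0.34 to 0.22, edgeR, adjusted p = 0.748). It became 0.27 (SE 0.15, adjusted p = 0.189) with the GC content and length correction and 0.030 without ventral replicate 2, so that its sign was not settled. The antisense gene Gm14205 shares 24.9% of its exonic bases, which makes its level less certain than that of Gad1 or Gad2. Per length Slc32a1 stood at 0.0363 ± 0.00694 of the summed decarboxylases in dorsal and 0.0333 ± 0.00457 in ventral libraries (log2 difference 0.11, exact permutation p = 0.5, adjusted 0.643). Leaving out a library gave 0.025 (ventral replicate 1) to 0.24 (dorsal replicate 1), and the GC content and length correction 0.46 (exact permutation p = 0.0317, adjusted 0.0714).

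Abat encodes GABA transaminase, which breaks GABA down, and lies on chromosome 16 from 8513429 to 8621568 on the plus strand. The dorsal pools held 173, 106, 109, 116 and 111 CPM of it and the ventral pools 149, 161, 93.3, 136 and 144 CPM. Dorsal replicate 1 was the highest of all 10 and stood apart from the other dorsal libraries, and ventral replicate 3 was the lowest. The log2FC was -0.16 (SE 0.16, 95% interval -0.51 to 0.18, edgeR, adjusted p = 0.463), and it ran from -0.31 without dorsal replicate 1 to -0.10 without ventral replicate 2 and was -0.057 with the GC content and length correction. The ratio of Abat to the summed decarboxylases was 0.0305 ± 0.00391 on the dorsal and 0.0302 ± 0.00518 on the ventral side, a log2 difference of 0.026 (exact permutation p = 0.889, adjusted 0.944).

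The balance of the GABA and glutamate genes was compared last. Per length, Gad1 and Gad2 together exceeded the 3 vesicular glutamate transporters together by 17.6, 11.9, 7.72, 12.9 and 11.5 times across the dorsal and by 16.3, 16.1, 15.2, 10.5 and 13.2 times across the ventral pools. The decarboxylases were thus higher in every library, with means of 12.3 ± 3.56 and 14.3 ± 2.44 (SD, n = 5 each), a log2 difference of -0.24 (exact permutation p = 0.317, adjusted 0.571). Once GC content and length were corrected for, the log2 difference was -0.51 (exact permutation p = 0.00794, adjusted 0.0357). For the vesicular transporters alone the order was the other way. Slc32a1 stood at 0.429 ± 0.0630 of the 3 glutamate transporters in dorsal and 0.474 ± 0.103 in ventral libraries (exact permutation p = 0.492, adjusted 0.643). By these levels the RNA for the decarboxylases and the RNA for vesicle loading ranked the GABA and glutamate genes in opposite orders in each library. These orders compare levels of different genes and are less sure for that. Exonic GC content was 44.8% for Gad2 and 61.9% for Slc32a1, and Slc32a1 shares 24.9% of its exonic bases with an antisense gene.

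Other genes of glutamate and GABA metabolism and transport were examined as a list of 19, of which 18 passed the filter and Slc6a13 did not. By edgeR 3 were called dorsal-enriched and 3 ventral-enriched, beside 15.7% and 9.85% of all tested genes, and the median log2FC was -0.15. The 3 dorsal-enriched genes were transporters that clear transmitter from the extracellular space. Slc1a2 (GLT-1), the main astrocytic glutamate transporter, averaged 1774 ± 80.5 CPM in dorsal and 869.9 ± 161 CPM in ventral pools (SD, n = 5 each) with no overlap and a log2FC of 1.03 (SE 0.12, adjusted p = 6.84e-05). Slc6a11 (GAT-3), an astrocytic GABA transporter, measured 33.0 ± 6.86 and 14.5 ± 1.82 CPM, also with no overlap and a log2FC of 1.19 (SE 0.18, adjusted p = 0.000343). Slc1a3 (GLAST) had a log2FC of 0.65 (SE 0.22, adjusted p = 0.0335) with overlapping ranges, and its call was lost without dorsal replicate 3, 4 or 5 or ventral replicate 2 or 4 and with the dispersions of edgeR 3. Among 5 astrocyte markers Gfap and Aqp4 were called dorsal-enriched and Aldh1l1, at means of only 1.17 and 4.16 CPM, ventral-enriched. Gja1, the most abundant of them (mean CPM 71.8 dorsal, 48.8 ventral), was not called. By the sign of the log2FC 4 of the 5 leaned dorsal and 1 ventral. The summed level of the 5 was 122 to 172 CPM in dorsal and 49.6 to 151 CPM in ventral libraries. The part of these marker differences in the transporter differences was not tested.

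The 3 ventral-enriched genes of that list were the aspartate aminotransferases Got1 and Got2, which interconvert glutamate and aspartate, and Slc1a4, a neutral amino acid transporter. Got1 averaged 150.1 ± 29.2 CPM in dorsal and 229 ± 21.6 CPM in ventral pools with no overlap and a log2FC of -0.61 (SE 0.13, edgeR, adjusted p = 0.00309). Got2 measured 39.0 ± 0.751 and 60.5 ± 9.59 CPM with no overlap and a log2FC of -0.64 (SE 0.13, edgeR, adjusted p = 0.0026). Slc1a4 measured 10.7 ± 4.33 and 23.5 ± 3.87 CPM with no overlap and a log2FC of -1.11 (SE 0.24, edgeR, adjusted p = 0.00348). The calls of Got1 and Got2 lay close to the fold criterion. Got1 fell under it without dorsal replicate 2, 3 or 5 or ventral replicate 2 or 5, at fitted log2FC values of -0.54 to -0.58. Got2 fell under it without ventral replicate 4, where its fitted log2FC was -0.59. The criterion applies to the log2 ratio of mean CPM plus 1, which can lie under 0.58 where the fitted log2FC does not. Both genes kept an adjusted p below 0.05 in edgeR. With the GC content and length correction both also fell under the criterion, at -0.49 for Got1 and -0.42 for Got2, and the list then held 2 ventral-enriched genes, Slc1a4 and 1 not reported here. Got1 also lost its call with DESeq2 size factors. Slc25a12, a mitochondrial carrier of aspartate and glutamate, had a log2FC of -0.31 (adjusted p = 0.0314), past the adjusted p of edgeR but not called. Among the genes that did not pass the adjusted p were glutamine synthetase Glul at 0.21 (adjusted p = 0.0971) and Aldh5a1, which acts after Abat in GABA breakdown, at -0.29 (adjusted p = 0.0623). Slc38a3, a glutamine transporter at 0.926 and 2.19 mean CPM, had a log2FC of -1.21 (adjusted p = 0.0926) and was called ventral-enriched without ventral replicate 1 or 2. Pdxk, Slc1a1, Aldh5a1 and Got2 share 39.0%, 31.9%, 17.7% and 9.0% of their exonic bases with genes on the other strand.

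**Figure D3:**
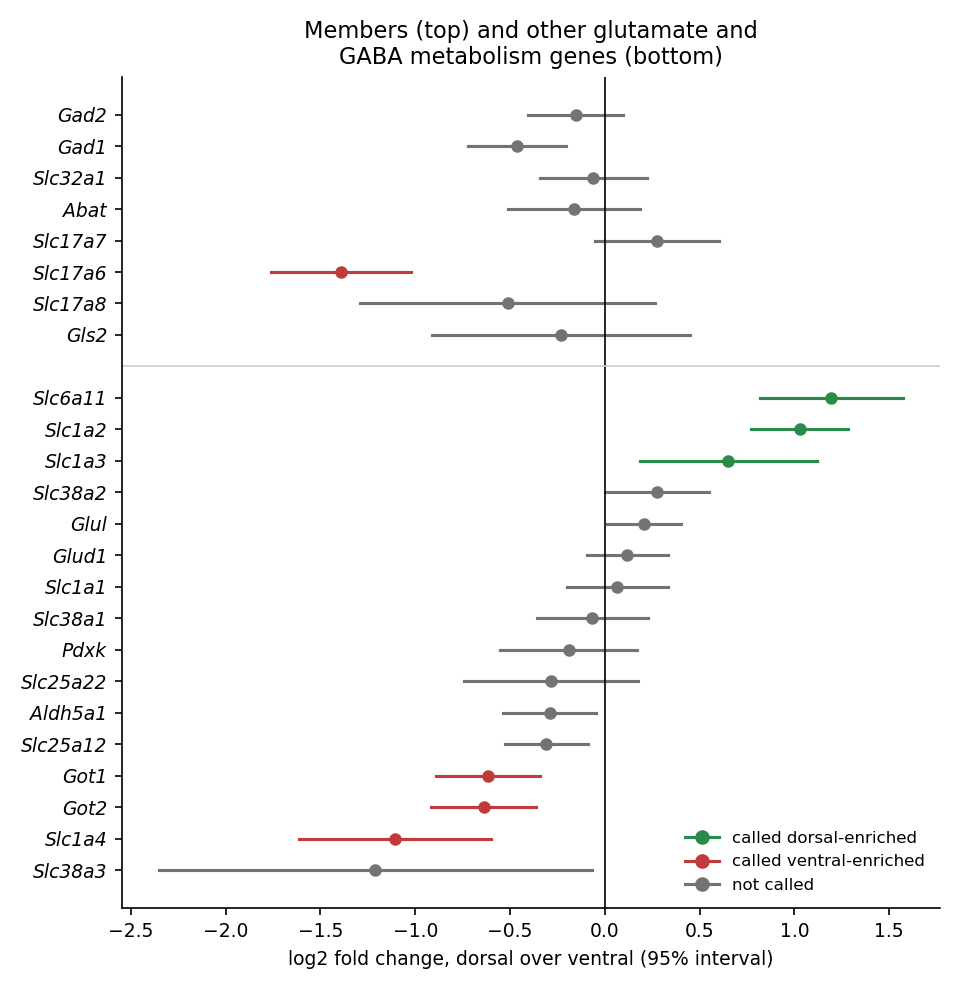
Log2 fold change of dorsal over ventral (points) with its 95% interval (lines) from edgeR for the 8 transmitter genes (top) and the tested genes of the metabolism and transport list reported here (bottom), coloured by call. Slc17a6 at -1.39 is the called gene in the top group, and the bottom group holds 3 called genes on each side of 0.

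For each transmitter gene the 3 most similar of 8496 protein-coding genes with a mean of at least 10 CPM were found by the root mean square difference of log2(CPM + 1), centred over the 10 libraries. Nearest to Slc17a6 were Nr2f2, a nuclear receptor, at a difference of 0.151, Cpne2 at 0.161 and Efnb2, a ligand of Eph receptors, at 0.178. Their log2FC values were -1.22, -1.18 and -1.21, and all 3 were called ventral-enriched. Since likeness over libraries of 2 groups is set mostly by the group difference, this is a description. The nearest genes were Nap1l1 at 0.0610 for Gad1, Snrpd1 at 0.0663 for Gad2, Mrps9 at 0.0905 for Slc32a1, Sap18 at 0.0919 for Abat, Snph at 0.119 for Slc17a7, Zfp869 at 0.267 for Slc17a8 and Tars at 0.151 for Gls2. None of these 7 genes was called. No transmitter gene was compared with another in this search.

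**Figure D4:**
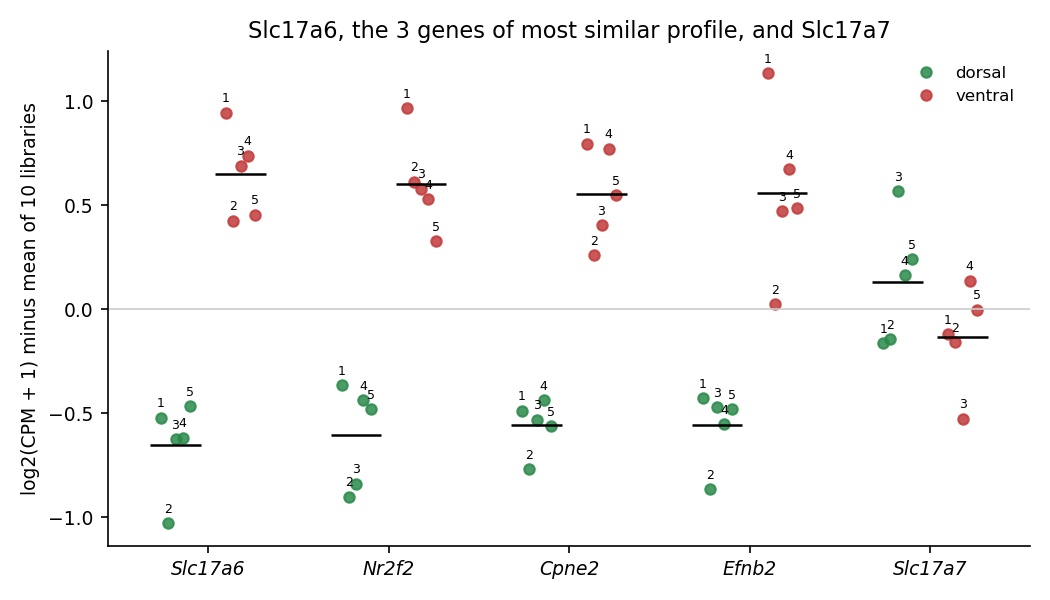
Level of Slc17a6, its 3 nearest genes and Slc17a7 in each library, as log2(CPM + 1) minus the gene's mean over the 10 libraries; points carry the replicate number, and short bars are group means. Slc17a6, Nr2f2, Cpne2 and Efnb2 lie below 0 in dorsal and above 0 in ventral libraries, whereas the Slc17a7 points of both groups overlap.

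Markers of other cells that carry these transmitters were read in the same libraries, as summed levels and calls by edgeR. Of 15 interneuron markers, 4 were called ventral-enriched (Sst, Pvalb, Lhx6 and Htr3a) and 1 dorsal-enriched (Dlx6), and 8 passed the adjusted p in the ventral direction. Among all tested genes 9.85% were called ventral-enriched, 15.7% dorsal-enriched, and 14.6% passed the adjusted p in the ventral direction. The interneuron markers' sum was 1177 to 1370 CPM in dorsal and 1396 to 1916 CPM in ventral libraries, without overlap. Sst alone supplied most of the difference in this sum (mean CPM 454 dorsal, 715 ventral). By the sign of the log2FC, 12 of the 15 markers leaned ventral and 3 dorsal (Dlx1, Dlx2 and Dlx6). The sum moved in the same direction as Gad1 (log2FC -0.46), whereas Gad2 (-0.15) and Slc32a1 (-0.062) did not pass the adjusted p of edgeR. The part of the sum in the Gad1 difference was not tested. Of 8 mossy cell markers, 3 were called on each side, Gria2, Gria3 and Cyp26b1 as dorsal-enriched and Calb2, Satb1 and Nr2f2 as ventral-enriched, beside 15.7% and 9.85% of all tested genes. Their sums were 1849 to 2118 and 2060 to 2517 CPM. Within these sums Gria2, at 1143 ± 98.0 and 651 ± 73.0 CPM, and Calb2, at 65.2 ± 9.32 and 616 ± 94.6 CPM, moved in opposite directions (SD, n = 5 each).

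Cells known to use Slc17a6 were represented by thalamic relay neuron markers and, as a list chosen after values were seen, by Cajal-Retzius cell markers. The thalamic sum was lower in ventral libraries, 447 to 558 CPM in dorsal against 107 to 259 CPM. This direction, opposite to Slc17a6, rested on Zic1 (mean CPM 418 dorsal, 68.4 ventral) and Zic4 (25.3 dorsal, 3.34 ventral). Ntng1, the most abundant marker after Zic1, leaned slightly the other way (38.5 dorsal, 43.3 ventral) and was not called. The remaining tested markers had means of at most 14.4 CPM and leaned in both directions. Zic1 and Zic4 were called dorsal-enriched and Rgs16 ventral-enriched among 9 tested genes, and Gbx2 reached at most 0.065 CPM. Of 4 Cajal-Retzius markers, Lhx1 and Lhx5 were called ventral-enriched, beside 9.85% of all tested genes, and the sums of 37.7 to 64.7 and 52.4 to 65.3 CPM overlapped. The part of these cells in the Slc17a6 difference was not tested. Among 3 tested subiculum markers Nts was called dorsal-enriched, beside 15.7% of all tested genes, with sums of 107 to 136 and 77.9 to 148 CPM. Nts itself was low (mean CPM 4.56 dorsal, 1.26 ventral). Tle4, which leaned slightly ventral and was not called, made up most of these sums (mean CPM 106 dorsal, 113 ventral). Fn1 leaned dorsal and was not called (mean CPM 9.35 dorsal, 7.91 ventral). The subiculum sums therefore say little of Nts or Fn1. Granule cells had 1 of 4 markers called, Prox1 as dorsal-enriched (summed levels 276 to 338 and 119 to 268 CPM). Prox1 itself made up most of that sum (mean CPM 289 dorsal, 175 ventral). By the sign of the log2FC 3 of the 4 leaned dorsal and 1, Dsp, ventral. Pyramidal cells had 1 of 6, Bok as dorsal-enriched (summed levels 789.7 to 876 and 719.6 to 817 CPM). Neurod6, which was not called, made up most of that sum (mean CPM 593 dorsal, 559 ventral). Here 5 of the 6 leaned dorsal and 1, Wfs1, ventral. The calls of 1 in 4 and 1 in 6 stand beside the same 15.7% of all tested genes. Of the oligodendrocyte markers Mbp was called dorsal-enriched, with overlapping levels of its own of 163 to 274 and 81.8 to 190.8 CPM. The call of Mbp lay at the edge of the fold criterion, at a log2 ratio of mean CPM plus 1 of 0.5801 (edgeR, adjusted p = 0.0324). Of the striatal Drd2 neuron markers 1 of 3 tested, Penk, was called dorsal-enriched, beside 15.7% of all tested genes (summed levels 29.0 to 68.1 and 25.7 to 33.4 CPM). None of the list genes was at 0 in all 10 libraries.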

How the data were processed

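Per the labels and the study's methods, RNA was precipitated by TRAP, amplified from 500 pg with the Ovation RNAseq V2 kit, made into TruSeq v2 libraries and sequenced as 50 bp paired ends on a HiSeq2500. The submitters' processing notes name STAR 2.5.2b, HTSeq 0.7.2, edgeR and GRCm38. The annotation release and the strand setting are not given in the sources used here. What the authors deposited were whole-number counts for each Ensembl gene, which they had neither normalized nor filtered. Symbols, exonic length and GC content came from GENCODE M21, which matched 54809 of 54838 identifiers. Upstream windows came from the RefSeq table on GRCm38.p6, which matched 6 of the 8 genes.

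The members and lists were chosen with earlier results of these data known. Counts were scaled by TMM, filtered at a CPM above 1 in at least 2 libraries and tested in R 4.3.3 with edgeR 4.0.16 (quasi-likelihood test, with Benjamini-Hochberg adjustment over all 16806 genes). SE is the log2 fold change over the square root of F. Ratios of counts per exonic kb were compared within libraries as log2 values by two-sided exact permutation tests. Genes named were the 8 members, the metabolism list, the marker lists and 3 nearest genes per member. The GC content and length correction used offsets from mgcv 1.9.3. Other alternatives were other size factors, filters and thresholds, DESeq2 1.42.0, a replicate block, an arithmetic ratio and each library left out. The fits were tested on simulated data. Some list genes and 1 of the 9 ratios are not reported here. Chi-square over degrees of freedom between libraries of a group was 4.36 to 45.1, so none was treated as a duplicate. Each library is a pool of mice, and p-values measure the spread between pools.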

Additional observations from a re-analysis of the deposited data

Results flagged for a closer look

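Among 34 groups of 5 libraries examined for a single library far from the rest by Dixon's test, 3 had one, and chance gives about 1 in 20. Abat stood at 173 CPM in dorsal replicate 1, where the other dorsal libraries lay between 106 and 116 CPM. Slc17a8 stood at 19.8 CPM in dorsal replicate 2, where the other dorsal libraries lay between 7.53 and 10.2 CPM. The ratio of Slc17a8 to Slc17a7 was 0.132 in the same library, beside 0.0326 to 0.0548 in the others, and it rests on the same Slc17a8 count. Without dorsal replicate 1 the log2 fold change of Abat was -0.31 (adjusted p = 0.1 by edgeR), and without dorsal replicate 2 that of Slc17a8 was -0.86 (adjusted p = 0.0832 by edgeR). Leaving out ventral replicate 3 moved Slc17a8 the other way, to -0.25 (adjusted p = 0.605 by edgeR), and leaving out ventral replicate 2 moved Abat to -0.10 (adjusted p = 0.671 by edgeR).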

How the results depend on the processing

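Slc17a6 was called ventral-enriched under all 22 alternatives, and the only other calls among the 8 genes were these. The GC content and length correction called 1 gene dorsal-enriched, Slc17a7 (log2 fold change 0.60, edgeR adjusted p = 0.00265), as it did together with the replicate block (0.59, edgeR adjusted p = 0.00643). Dropping the fold criterion gave 2 ventral-enriched genes, with Gad1 at -0.46 (edgeR adjusted p = 0.0103), and 5 ventral-enriched genes in the metabolism list. Slc32a1 changed sign to 0.27 with the correction, 0.28 with the block and the correction and 0.030 without ventral replicate 2, and Gls2 to 0.054 with the block and the correction. The correction also gave log2 differences of -1.97 for Slc17a6 over Slc17a7 and -0.51 for the decarboxylases over the glutamate transporters, each with an exact permutation adjusted p of 0.0357, where these 2 ratios shared the smallest p and so passed together. Leaving out each library in turn gave ranges of -0.10 to 0.030 for the log2 fold change of Slc32a1, 0.27 to 0.42 for Gad2 over Gad1, -0.085 to 0.089 for Abat over the decarboxylases, -1.76 to -1.54 for Slc17a6 over Slc17a7 and -0.38 to -0.086 for the decarboxylases over the glutamate transporters. In those fits the metabolism list had 2 to 3 dorsal-enriched and 2 to 4 ventral-enriched genes. Without dorsal replicate 2, Gad2 over Gad1 (0.42) and Slc17a6 over Slc17a7 (-1.61) shared the smallest p and each passed at an adjusted 0.0357 (exact permutation). The cause of these changes was not tested.

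The 2 groups share mice, but the sources do not say which pools correspond, and the data did not show it in the replicate numbers, since same-numbered libraries deviated together at correlations of only -0.032 to 0.069 across genes, and 2 of 5 correlated best with their own number. With the replicate block the log2 fold change of Slc17a6 was -1.37 (edgeR adjusted p = 0.00059), that of Gad1 -0.47 (edgeR adjusted p = 0.00655), and 1 ventral-enriched and 0 dorsal-enriched genes were called among the 8. In the paired form the ratios kept their log2 differences, -1.65 for Slc17a6 over Slc17a7, and the smallest p that 5 pairs allow is 0.0625. Testing genes without an expression filter moved the median log2 fold change of all genes to 0.106. Among the 8 genes Gls2 had the fewest counts in a library, 31 to 196.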
